A study of Mus musculus with 3 samples.

Results

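D cyclins, their kinase partners and the CDK inhibitors of the INK4 family with p27 were followed in CT26.WT cells, a cloned line of the murine colon carcinoma CT26. The members are 10 genes chosen by name: Ccnd1, Ccnd2, Ccnd3, Cdk4, Cdk6, Cdkn1b, Cdkn2a, Cdkn2b, Cdkn2c and Cdkn2d. Every probe set that the platform annotation gives exactly 1 of these symbols was taken, which made 25 probe sets of 45101 on the array and 10 genes of 18194 with such a name. The rule uses names alone, but the genes were proposed with earlier results of these data known.

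The first group was held in serum-free medium for 12 h and then received recombinant mouse S100a8 protein at 4 µg/ml for a further 24 h. The second was kept the same way and received recombinant mouse S100a9 protein at the same dose and time. The control was in serum-free medium too and received neither protein. Its labels conflict, with bovine serum albumin in the title and saline in the description and the design text, and no times of its own are given for it. Total RNA of each culture was measured on 1 Affymetrix mouse whole-genome array, so each group held 1 array and the groups have no replicates. No test was therefore possible, and each difference below compares single arrays whose number limits the precision.

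Cells decide in G1 whether to enter another division. D-type cyclins accumulate in response to growth signals and activate the kinases CDK4 and CDK6, which phosphorylate the retinoblastoma protein and so release E2F transcription factors. The INK4 proteins bind CDK4 and CDK6 and keep D cyclins from activating them, while p27 acts on cyclin E-CDK2 and is itself held by cyclin D complexes. In tumour cells the brakes of this circuit, above all the product of Cdkn2a, are often missing, and a loss of Cdkn2a has been reported for the CT26 line.

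Start sites of the members are shown for the kinase pair and for Cdkn2a, since one kinase gene lay below control with either protein while its partner lay closer to control, and the Cdkn2a signal lay far below the limit set for a comparison. The sequences are the 250 bases upstream of an annotated start, from RefSeq on build GRCm38.p6, in which 8 of the 10 members had a window. Capitals mark the E-box CACGTG, the site bound by MYC and related factors, and the E2F-type motifs TTTCCCGC and TTTGGCGC, searched on both strands, and the 3 motifs do not overlap in these windows. The windows lie at chr10:127063285-127063534 (plus strand) for Cdk4, chr5:3343643-3343892 (plus strand) for Cdk6 and chr4:89294620-89294869 (minus strand) for the upstream start of Cdkn2a, from which the Arf transcript is known to begin.
Cdk4: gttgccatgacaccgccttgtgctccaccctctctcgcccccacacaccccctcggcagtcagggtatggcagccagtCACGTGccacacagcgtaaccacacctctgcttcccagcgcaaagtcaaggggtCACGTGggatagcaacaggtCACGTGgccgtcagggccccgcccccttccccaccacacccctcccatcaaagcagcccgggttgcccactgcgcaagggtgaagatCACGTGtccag
Cdk6: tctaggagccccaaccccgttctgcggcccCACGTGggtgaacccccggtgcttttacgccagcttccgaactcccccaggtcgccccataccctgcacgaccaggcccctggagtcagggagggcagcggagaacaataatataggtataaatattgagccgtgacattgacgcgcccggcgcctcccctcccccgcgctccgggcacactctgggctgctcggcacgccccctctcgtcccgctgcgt
Cdkn2a: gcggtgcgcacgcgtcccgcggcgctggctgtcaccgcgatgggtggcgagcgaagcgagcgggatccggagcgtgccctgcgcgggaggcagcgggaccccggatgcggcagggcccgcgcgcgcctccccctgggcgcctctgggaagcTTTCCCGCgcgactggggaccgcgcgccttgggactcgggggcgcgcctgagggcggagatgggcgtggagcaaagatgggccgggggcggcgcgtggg

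The Cdk4 window held 4 copies of the E-box and the Cdk6 window 1. Of the 32851 start windows of the table, 6.02% held at least 1 E-box and 0.0213% (7 windows) held 4 or more. The upstream window of Cdkn2a held 1 E2F-type motif, which occurred in 1.3% of all windows. The other Cdkn2a window (chr4:89282193-89282442, minus strand), not printed here, held 0 E-boxes and 0 E2F-type motifs. These matches describe letters in the reference genome and not binding in these cells.

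With either protein, the signals of the 8 genes bright enough to compare lay within 1.5-fold of the control. Ccnd1, the cyclin D1 gene, was 1.29-fold higher with S100a8, and Cdk6 was 1.21-fold lower with S100a8 and 1.22-fold lower with S100a9. By their brightest probe sets, the other six compared members differed from control by 1.13-fold or less. The remaining members were not compared, since Cdkn2a lay far below the limit for comparison in each culture and Cdkn2b lay at that limit.

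Values are MAS5 signals on a linear scale. Signals under the floor, the median of all signals other than controls (76.0), were raised to it before log2 was taken, and the brightest probe set by mean log2 signal stood for a gene. A gene was compared where that mean lay above the floor, which held for 8 of the 10 members and for 11139 genes in all. At a descriptive size of 1.5-fold, 0 of the 8 were higher and 0 were lower with S100a8, beside 1.13% of all compared genes higher and 1.91% lower. With S100a9 the counts were again 0 and 0, beside 0.251% and 0.853%. With background shares this low, counts of 0 do not set the members apart.

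A smaller size of 1.2-fold, added after the values were seen, was passed with S100a8 by Ccnd1 among higher genes and by Cdk6 among lower genes. That is 1 of 8 in each direction, beside 13.8% and 11.2% of all compared genes. With S100a9 it was passed by 0 of 8 higher and by Cdk6 alone among the lower, beside 6.08% and 7.84%. These shares are near the background and rest on the brightest probe set of each gene. Among the 23 member probe sets above the floor, 3 were at least 1.2-fold higher with S100a9, all of Ccnd2. At least 1.2-fold lower with S100a9 were 4, from Cdk6, Cdkn1b and Ccnd3. With S100a8 the counts were 1 higher (Ccnd1) and 3 lower (all Cdk6). The share over all probe sets was not computed, so these probe set counts have no background and do not set the members apart. Counted by direction alone, 4 of 8 were higher and 4 lower with S100a8, beside 52.5% and 47.5% of all compared genes, and 5 were higher and 3 lower with S100a9, beside 51.2% and 48.1%. With the arrays centred on their medians, the members split into 3 higher and 5 lower with S100a8 and 6 higher and 2 lower with S100a9, as the split of all compared genes moved to 43.2% and 56.8%, and to 62.6% and 36.9%. The median log2 ratio of the 8 members was −0.01 for S100a8 and 0.02 for S100a9, and that of all compared genes was 0.01 and 0.004. The S100a8 and S100a9 ratios share the single control array, so a departure of that array enters both.

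Of the 25 probe sets, 23 had a mean above the floor. The one farthest from control with S100a8 differed by 1.43-fold, and with S100a9 by 1.30-fold. As a scale for these values, the log2 ratios of probe sets of the same gene differed with a pooled SD of 0.22 for S100a8 and 0.18 for S100a9 over 4950 genes with more than 1 probe set above the floor. That SD reflects disagreement between probe sets of 1 array pair and leaves out the variation between cultures.

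**Figure D1:**
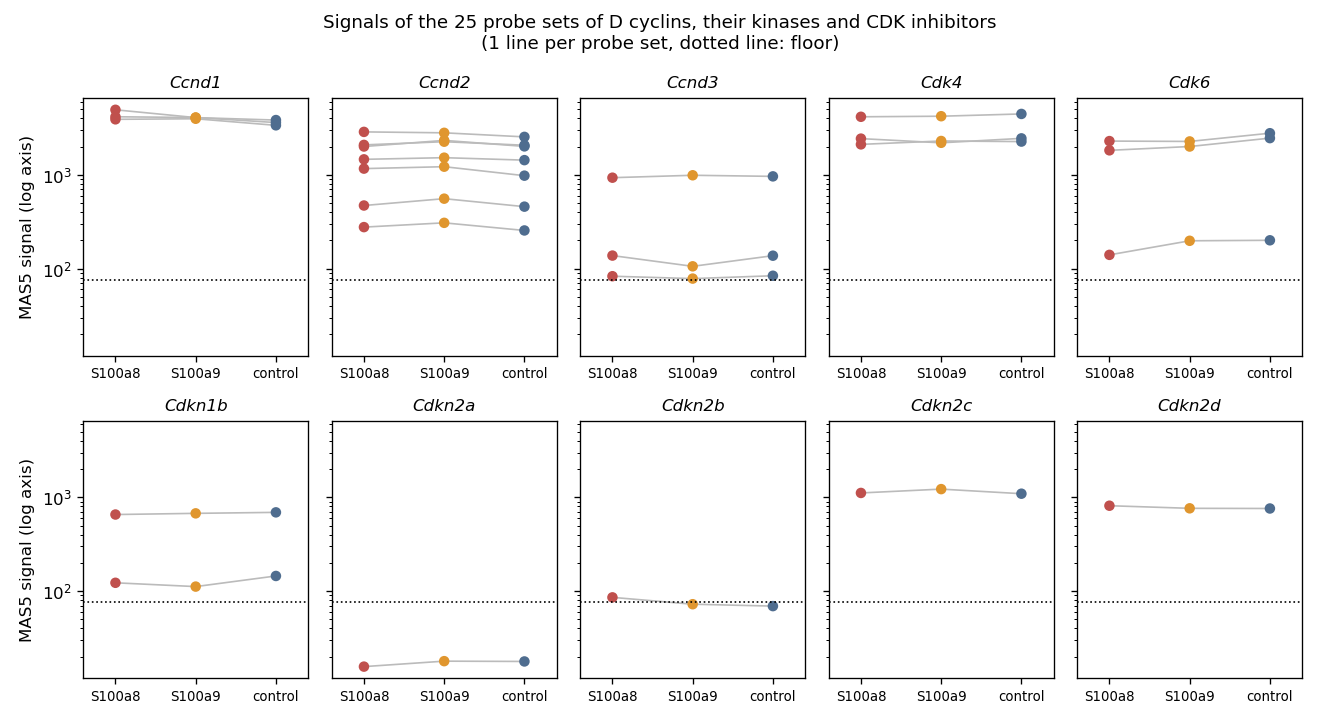
MAS5 signals (log axis) of the 25 probe sets on the S100a8, S100a9 and control arrays, 1 panel per gene, 1 line per probe set, with the floor of 76.0 dotted. Lines run nearly flat in every panel, the Cdkn2a line stays between 15.7 and 17.9, and the single Cdkn2b line crosses the floor.

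Cyclin D1 is the D cyclin most often raised in carcinomas, and its gene responds to growth factor signalling. The 3 Ccnd1 probe sets were all higher with either protein than in the control, also after median centring or quantile normalization of the arrays. The brightest of them had a signal of 4944 with S100a8 and 4082 with S100a9, against 3842 in the control, for log2 ratios of 0.36 and 0.09. The second had 4167 and 4088, against 3613 in the control, for log2 ratios of 0.21 and 0.18. The remaining one had 3912 and 3967, against 3376 in the control, for 0.21 and 0.23. The control array was thus the lowest on each of the 3 probe sets, with no replicate to set its spread. The mean log2 ratio over the 3 was 0.26 (SD 0.09 over probe sets) for S100a8 and 0.17 (SD 0.07) for S100a9. Among 1276 genes with 3 probe sets above the floor, 20.3% had all 3 higher with S100a8 and 20.6% with S100a9. By its brightest probe set, 6.92% of compared genes had a higher ratio than Ccnd1 with S100a8 and 29.8% with S100a9.

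Cyclin D2, encoded by Ccnd2, is the D cyclin prominent in lymphocytes and gonadal cells, and it activates the same kinases. Its 7 probe sets were all higher with S100a9 than in the control, with log2 ratios of 0.09 to 0.32, and stayed so under both other scalings. With S100a8, 6 of the 7 were higher, with a range of −0.005 to 0.25, a count that was 3 with median centring and 7 with quantile normalization. The brightest gave 2874 with S100a8 and 2808 with S100a9, against 2542 in the control. The probe set farthest from control gave 1166 and 1222, against 980.3 in the control. Both treated arrays were above the control there, by 1.19-fold and 1.25-fold. The mean over the 7 was 0.09 (SD 0.10) for S100a8 and 0.21 (SD 0.09) for S100a9. Of 33 genes with 7 probe sets above the floor, 6.06% (2 genes, Ccnd2 itself among them) had all 7 higher with S100a9. The probe sets of 1 gene share the same RNA and can share sequence, so their number is not a number of replicates.

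Cyclin D3, from Ccnd3, is the most widely expressed of the D cyclins. Its brightest probe set gave 932.9 with S100a8 and 989.8 with S100a9, against 963.4 in the control, so the control lay between the treated cultures. The other two were dim and did not follow it with S100a9. The first of them gave 138 with S100a8 and 106 with S100a9, against 137 in the control. The last gave 82.9 and 78.2, against 83.9 in the control, just above the floor. The ratios of Ccnd3 for S100a9 therefore ran from −0.38 to 0.04 over its probe sets, and the gene has no settled direction.

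CDK4 and CDK6 are the catalytic partners of the D cyclins. Cdk6 was lower than control on all 3 of its probe sets with either protein, except that the dim one turned slightly positive for S100a9 under median centring (0.03) and quantile normalization (0.02). The brightest gave 2292 with S100a8 and 2273 with S100a9, against 2781 in the control, for log2 ratios of −0.28 and −0.29. The second gave 1826 and 2006, against 2465 in the control, for −0.43 and −0.30. The remaining, dim one gave 140 with S100a8 and 198 with S100a9, against 200.4 in the control, for −0.52 and −0.02. The brightest probe set thus lay below control by a similar amount in both treated cultures. The second was farther below control with S100a8 than with S100a9, and the dim one lay near control with S100a9. The mean ratio was −0.41 (SD 0.12 over probe sets) for S100a8 and −0.20 (SD 0.16) for S100a9. Among genes with 3 probe sets above the floor, 24.7% had all 3 lower with S100a8 and 21.5% with S100a9. A lower ratio than that of the brightest Cdk6 probe set was found in 10.1% of compared genes with S100a8 and in 6.34% with S100a9. By that probe set, Cdk6 lay inside the bulk of the array. Its other probe sets were farther from control with S100a8 (−0.43 and −0.52).

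By its brightest probe set, Cdk4 was nearer to control than Cdk6. Its brightest probe set gave 4164 with S100a8 and 4223 with S100a9, against 4466 in the control. The next gave 2435 and 2198, against 2451 in the control, and the last 2114 and 2297, against 2265. All 3 were below control with S100a8, at log2 ratios of −0.10 to −0.01, of which 1 passed to 0.01 with quantile normalization. With S100a9 they ran from −0.16 to 0.02. Myc, which encodes an E-box factor, had 1443 with S100a8 and 1454 with S100a9, against 1383 in the control, for log2 ratios of 0.06 and 0.07. Any link between Myc, the E-boxes of either start window and the kinase ratios was not tested.

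**Figure D2:**
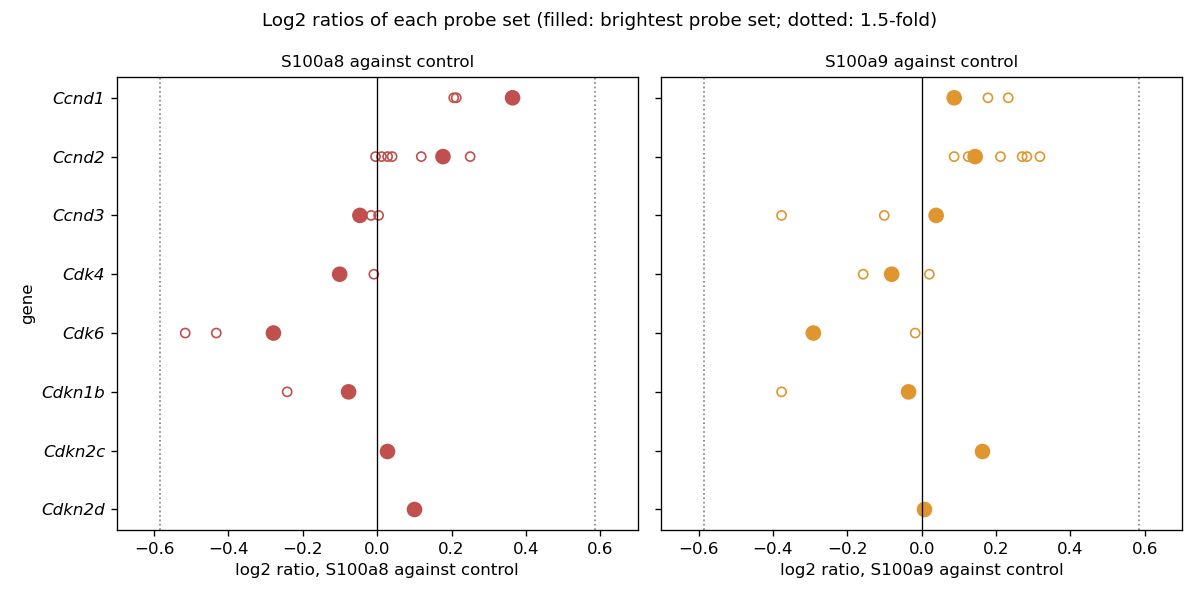
Log2 ratio of every member probe set above the floor, with S100a8 against control on the left and S100a9 against control on the right. Filled points are the brightest probe set of a gene, open points the others, and dotted lines mark 1.5-fold, which 0 points pass. Ccnd1 lies right of zero and Cdk6 left of zero in both panels, while the points of Ccnd3 and Cdk4 straddle zero with S100a9.

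The INK4 genes encode p16 (Cdkn2a), p15 (Cdkn2b), p18 (Cdkn2c) and p19 (Cdkn2d), and Cdkn2a also encodes Arf, which stabilises p53 by binding MDM2. The single Cdkn2a probe set gave 15.7 with S100a8 and 17.9 with S100a9, against 17.8 in the control. All lay well below the floor of 76.0. The annotation used here does not say which of the transcripts of the locus the probe set reads. Signals at this level have no order, and no fold is given. A lost gene and a silent one cannot be told apart from RNA signals.

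Its neighbours on chromosome 4 were read for comparison, taking the 5 named genes on either side in RefSeq order, of which 5 had a probe set. Mtap, a gene of methionine salvage and the nearest protein-coding neighbour on one side, was well above the floor on all 4 of its probe sets. Its brightest gave 4266 with S100a8 and 4315 with S100a9, against 4649 in the control, for log2 ratios of −0.12 and −0.11. On the other side lie Cdkn2b, Dmrta1, Zfp352 and Elavl2. Dmrta1 gave 22.7 with S100a8 and 28.2 with S100a9, against 27.9 in the control, and Elavl2 gave 63.7 and 63.4, against 62.4, so both stayed below the floor. Zfp352 was dim at 102 and 88.6, against 70.7 in the control. The RNA of Mtap was thus clearly measured beside a Cdkn2a signal below the floor.

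Cdkn2b, known in epithelial cells as a gene induced by TGF-beta, gave 85.8 with S100a8 and 72.5 with S100a9, against 69.2 in the control. The S100a8 signal alone lay above the floor, and the mean did not, so the gene was not compared. Dim signals in general were raised on the S100a8 array. Over the 25% of compared genes with the dimmest signals, the S100a8 ratio to control had a median of 0.14, beside −0.01 over the others, and the part of this in the Cdkn2b value was not tested.

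Cdkn2c and Cdkn2d were the INK4 genes well above the floor, each on 1 probe set. Cdkn2c, whose p18 product restrains CDK6 in particular, gave 1116 with S100a8 and 1226 with S100a9, against 1095 in the control. The S100a9 culture was the highest of the 3, at a log2 ratio of 0.16, while the S100a8 culture was at 0.03, which became −0.02 with median centring. For S100a9, 16.2% of compared genes had a higher ratio. Cdkn2d gave 815.5 and 765.0, against 761.8 in the control, for log2 ratios of 0.10 and 0.01.

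Cdkn1b encodes p27, a CDK inhibitor that accumulates in cells without growth factors, largely through slower breakdown of the protein. Its brighter probe set gave 656.7 with S100a8 and 676.0 with S100a9, against 692.7 in the control, for log2 ratios of −0.08 and −0.04. The dimmer gave 123 and 112, against 145 in the control, for −0.24 and −0.38. Both probe sets were lower in each treated culture but disagreed in size, and the brighter turned to 0.01 for S100a9 with median centring.

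**Figure D3:**
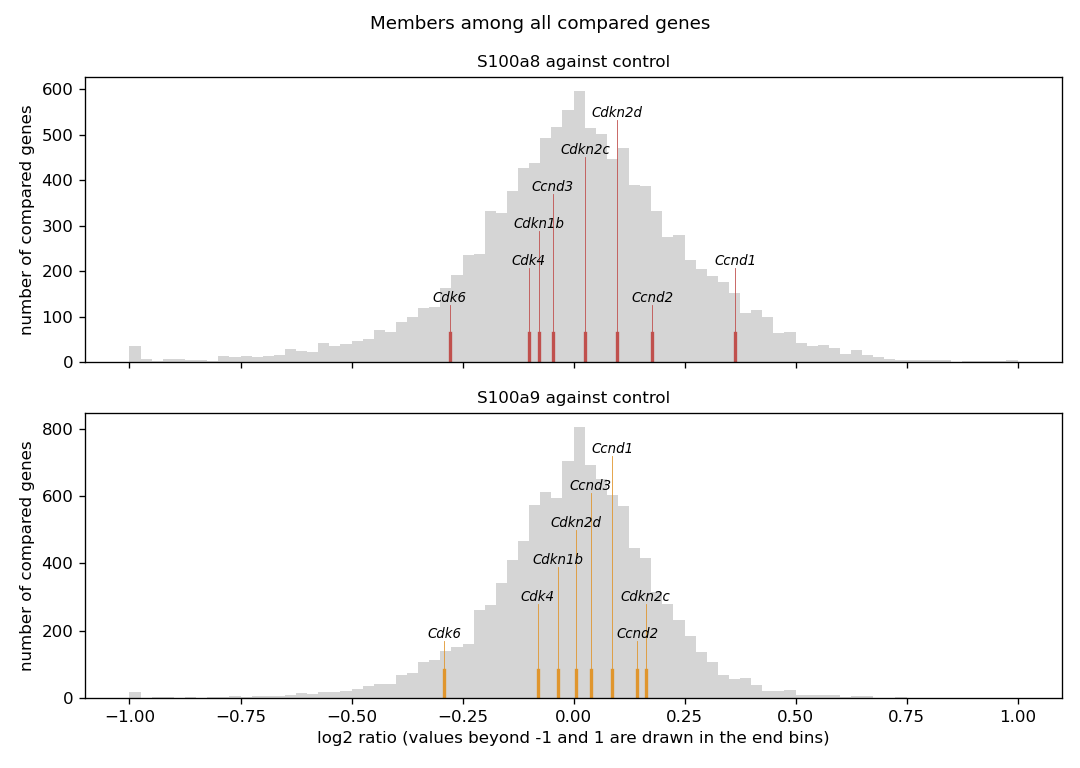
Histograms of the log2 ratios of 11139 compared genes (grey, number of genes per bin) with the 8 compared members marked, S100a8 against control above and S100a9 against control below. Cdk6 sits in the left flank of both histograms at −0.28 and −0.29, and Ccnd1 sits in the right flank at 0.36 with S100a8 and near the centre at 0.09 with S100a9.

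Set against each other, S100a9 and S100a8 gave near equal signals for most members. The median log2 ratio of S100a9 over S100a8 was 0.004 for the 8 members and 0.02 for all compared genes. At 1.5-fold, 0 of 8 were higher and 0 lower, beside 0.0988% and 1.01% of all compared genes. At 1.2-fold, 0 were higher and Ccnd1 alone was lower, beside 4.27% and 10.8%. By direction, 4 of 8 were higher and 4 lower, beside 54.9% and 45.1%, whereas with median centring 7 were higher and 1 lower, beside 73.7% and 26.3%. Ccnd1 had the lowest ratio, −0.28 by its brightest probe set, and 9.96% of compared genes were lower still. That value rested on 1 probe set, since the other two were at −0.03 and 0.02. Cdkn2c had the highest ratio at 0.14. For Cdk6 the brightest probe set was at −0.01, the second at 0.14 and the dim one at 0.50.

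The wider circuit was read from 6 lists of 65 genes, of which 63 were compared. With S100a8, 0 were at least 1.5-fold higher and 1 was at least 1.5-fold lower, beside 1.13% and 1.91% of all compared genes. With S100a9 the counts were 0 and 0, beside 0.251% and 0.853%. Of the 63, 32 were higher and 31 lower with S100a8, and the same numbers held with S100a9. Of all compared genes, 52.5% were higher and 47.5% lower with S100a8, and 51.2% and 48.1% with S100a9. These shares are the background for the counts of each list below. The splits of the 63 followed the scaling, with 18 higher for S100a8 and 41 for S100a9 under median centring. Under quantile normalization 37 and 39 were higher. The directions of list members below therefore hold for the deposited scale. The median log2 ratio was 0.002 and 0.003, close to the 0.01 and 0.004 of all compared genes.

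Pocket proteins, such as the retinoblastoma protein, are targets of the D cyclin kinases. Among the 13 pocket proteins and E2F factors, 10 were higher with S100a8 and 9 with S100a9, with medians of 0.04 and 0.07. With S100a8, median centring left 6 of the 13 higher. None passed 1.5-fold in either direction. The activator gene E2f2 had the highest ratio with S100a8, at 0.34, followed by E2f5 at 0.22, and both were near control with S100a9 (0.07 and −0.09). E2f7, a repressor, was at −0.15 and −0.14. E2f1 was at −0.07 and −0.002. The pocket protein gene Rbl2 (p130) was at 0.01 with S100a8 and 0.22 with S100a9, and E2f6 was at 0.12 with each. Of the 8 genes of cyclin E-CDK2 and the CDK-activating kinase, 4 were higher with S100a8 and 6 with S100a9, with medians of −0.004 and 0.06 and none past 1.5-fold. Ccne1 was at 0.13 with S100a8 and 0.08 with S100a9, and Cdc25a, the phosphatase that activates CDK2, was at −0.06 and 0.003. Cdk2 was at −0.07 with S100a8 and at 0.18 with S100a9. Cdk7 was at 0.10 and 0.14, Ccne2 at −0.01 with each protein, and Mnat1 at 0.002 and −0.07.

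Turnover of D cyclins and p27 depends on ubiquitin ligases. Of 13 genes listed for this turnover, 9 were lower with S100a8 and 8 with S100a9, with medians of −0.12 and −0.01. Median centring gave 8 higher with S100a9. Rbx1, the RING subunit of cullin ligases, was the gene past 1.5-fold. It gave 131 with S100a8 and 160 with S100a9, against 208 in the control, for log2 ratios of −0.66 and −0.37. Ambra1, an adaptor for cyclin D breakdown, was at −0.28 with S100a8 and 0.003 with S100a9. Fbxw7, a cyclin E ligase subunit, was at −0.27 and −0.14. Skp2, the ligase subunit that marks p27, was at 0.04 with S100a8 and at 0.19 with S100a9. Ubac1, of a complex that also acts on p27, was at 0.16 and 0.14, and Skp1 at 0.04 and 0.14.

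Regulators of the members' transcription, Polycomb subunits that silence the Cdkn2a locus together with FOXO and MYC network genes, counted 14. Of these, 9 were lower with each protein, with medians of −0.07 and −0.04 and none past 1.5-fold. Foxo3, an activator of Cdkn1b, was at −0.47 with S100a8 and −0.20 with S100a9, while Foxo1 was at 0.34 and 0.12. Zbtb17, the MYC partner MIZ1 that can activate Cdkn2b, was at −0.28 and −0.26. Ezh2, the Polycomb methyltransferase, was at 0.10 and 0.17, and its partner Suz12 was at −0.23 and −0.26.

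Of the other CIP/KIP inhibitors, Cdkn1a (p21) gave 4098 with S100a8 and 4336 with S100a9, against 4995 in the control, for log2 ratios of −0.29 and −0.20. Cdkn1c (p57) lay below the floor on all 3 arrays. Of 14 compared proliferation markers, 9 were higher with S100a8 and 7 with S100a9, with medians of 0.01 and 0.01 and none past 1.5-fold. Mki67, the Ki-67 antigen gene, was lowest at −0.31 and −0.26, followed by the mitotic kinase gene Aurka at −0.11 and −0.17. The highest were Cdc6 at 0.25 and Mcm3 at 0.19 with S100a8, and Mcm6 at 0.20 and Mcm3 at 0.19 with S100a9, all genes of replication licensing. The Mcm genes of the list differed in direction. Mcm2 was at 0.13 and 0.12, Mcm4 at 0.10 and 0.05, and Mcm6 at 0.13 with S100a8. Mcm7 was at −0.08 with each protein, and Mcm5 at 0.01 and −0.02 (−0.04 and 0.03 after median centring).

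**Figure D4:**
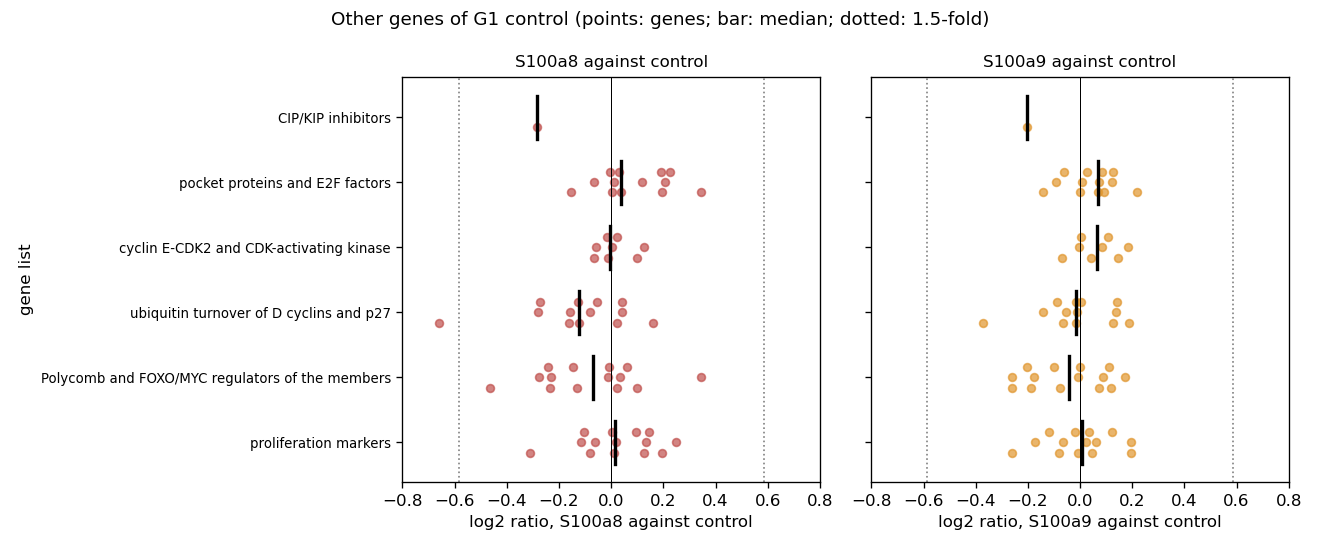
Log2 ratios of the compared genes of 6 lists of G1 control genes, S100a8 against control on the left and S100a9 against control on the right, with 1 point per gene, a bar at each list's median and dotted lines at 1.5-fold. Rbx1, at −0.66 with S100a8, is the point beyond a dotted line, and the list medians of more than 1 gene lie between −0.12 and 0.07.

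As a check of the arrays and the label, the median signal was 73.6 to 78.6 over the 3 arrays. Of 8 epithelial markers, 4 were above the floor on each array, whereas Cdh1, Krt8, Krt19 and Vil1 were below it. Among the measured ones, Krt18 was at −0.49 with S100a8 and −0.23 with S100a9, Cdx2 at 0.28 and 0.11, Epcam at 0.16 and −0.24, and Krt20 at −0.09 and −0.004 (0.04 with S100a9 after median centring).

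Some markers of other cell types lay farther from control than any compared member. Of 6 fibroblast markers, 5 were above the floor, and all 5 were lower with S100a8 (median −0.69 on the log2 scale), while 4 were lower with S100a9 (median −0.17). These counts were the same after median centring or quantile normalization. Of all compared genes, 47.5% were lower with S100a8 and 48.1% with S100a9 on the deposited scale. The receptor gene Pdgfrb gave 426 with S100a8 and 476 with S100a9, against 808 in the control, for log2 ratios of −0.92 and −0.76, both past 1.5-fold. The matrix gene Dcn gave 157 and 243, against 296 in the control (−0.92 and −0.28), and Pdgfra gave 150 and 214, against 241 (−0.69 and −0.17), so that both passed 1.5-fold with S100a8. The collagen genes Col1a1 (−0.13 and −0.17) and Col1a2 (−0.02 and 0.07) lay closer to control, and Lum was below the floor. The summed signal of the list, 8378 with S100a8 and 9028 with S100a9, against 9095 in the control, is mostly that of Col1a2.

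Of 6 macrophage and granulocyte markers, 3 were above the floor, and all 3 were higher with each protein under each of the 3 scalings. Of all compared genes, 52.5% were higher with S100a8 and 51.2% with S100a9 on the deposited scale. The summed signal of the 6 markers was 1034 with S100a8 and 951.7 with S100a9, against 742.7 in the control. Cd68, a lysosomal macrophage marker, gave 422 and 396, against 273 in the control, for log2 ratios of 0.63 and 0.53, and passed 1.5-fold with S100a8, though not after median centring (0.58). Csf1r was at 0.47 and 0.23 and Lyz2 at 0.20 and 0.45, while the pan-leukocyte gene Ptprc, Adgre1 and Itgam were below the floor. The lymphoid list (3 of 5 above the floor) summed to 1097 and 903.3, against 941.2 in the control, with Cd8a at 0.39 and 0.23, Cd4 at 0.36 and 0.01 and Cd3e at 0.15 and −0.16. The endothelial list (2 of 5) summed to 348 and 301.0, against 301.6 in the control, with Egfl7 at 0.27 and 0.003 and Kdr at 0.10 and −0.06. Apart from Cd3e, these lymphoid and endothelial signals were dim, between 90.6 and 171 on the 3 arrays. Dim signals in general were raised on the S100a8 array, with a median log2 ratio of 0.14 over the dimmest 25% of compared genes. The part of these marker differences in the member values was not tested. The cultures were of a cloned tumour line, so these markers are not read as amounts of other cell types.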

How the data were processed

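Total RNA of 3 CT26.WT cultures was measured, each on 1 array. The deposited values are linear intensities, 1 per probe set. The submitters' processing notes name MAS5, a method that subtracts mismatch signal and so leaves dim values noisy. Neither version nor scaling is given in the sources used here. Per the labels' protocols, the labelled cRNA carried biotin and came from 1 µg of RNA. Columns were matched to samples by accession and groups taken from the labelled agent.

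Of 45101 probe sets, 34958 had 1 symbol in the platform annotation, which can be old, and 932 had several and were left out. The 64 controls were kept out of the floor and the genes. The log2 ratios were computed here from the deposited signals after the floor (50th percentile), with Python 3.11.15, numpy and pandas, and the calculation was tested on simulated data. As no group had a second array, no test was run and no p-value exists, and 1.5-fold served as a descriptive size. All members were named. From each further list the naming rule took the 2 highest and 2 lowest ratios against control (applied to the marker lists too), and for Cdkn2a the 5 named genes on either side. Myc, Cdkn1c, Pdgfra, Mcm2, Mcm4, Mcm5 and Mcm7 were added after their values were seen. The members and lists were chosen with earlier results of these data known. Of the listed genes, Ccnb1 was not analysed here. RefSeq tables of GRCm38.p6 gave gene order and start windows.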

Additional observations from a re-analysis of the deposited data

How the results depend on the processing

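With 1 array per group, spread between cultures could not be measured, and dim probe sets carry most noise. No paired analysis was possible because each group holds 1 array and the labels give no replicate numbers. Arrays were rescaled by median centring or by quantiles, the floor was put at percentile 30 or 65 or replaced by log2(value + 1), dim genes were kept, probe sets were averaged or those ending in _x_at or _s_at taken last, and the size was set to 2-fold. Under each, 0 members were at least 1.5-fold (or 2-fold) from control or between the proteins. The 2-fold count follows from the 0 at 1.5-fold. A 1.2-fold size, chosen after seeing the data, was applied to the brightest probe sets. It gave 1 higher and 1 lower with S100a8, 1 lower with S100a9 and 1 lower for S100a9 against S100a8. Median centring moved the members' median to −0.056 for S100a8 (all compared genes −0.03) and to 0.10 for S100a9 against S100a8 (all genes 0.11). Of 24 gene ratios, 15 kept their sign under all 8 settings. The changed floors, log2(value + 1) and keeping dim genes hardly moved these ratios, so those settings say little about the signs. Ccnd1 stayed higher (0.26 to 0.37 with S100a8, 0.09 to 0.17 with S100a9) and Cdk6 lower (−0.41 to −0.27 and −0.29 to −0.20). The sign changed under median centring for Cdkn2c with S100a8 (−0.02) and Cdkn1b with S100a9 (0.01), and under the mean of probe sets for Ccnd3 with S100a9 (−0.15). The other 6 sign changes were ratios of S100a9 to S100a8. The cause was not tested.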
